A study of Mus musculus with 18 samples.

Results

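The voltage-gated and potassium channel genes of mouse islets are described here across 6 groups of islet libraries. The members were chosen by gene symbol alone: the pore-forming and accessory subunits of voltage-gated calcium channels (Cacn), voltage-gated sodium channels (Scn) and potassium channels (Kcn). Kcnj11 and Kcnj8, which encode the pores of ATP-sensitive potassium channels, were left out. No level was required, and 135 of the 24346 listed gene symbols matched, 4 of them noncoding or antisense transcripts.

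Islets of Langerhans, the endocrine clusters of the pancreas, were isolated from C57BL/6 mice, and all libraries came from that strain. Mice lacking exon 2 of Cdh13 (deleted islets; Cdh13 encodes the cell surface protein T-cadherin) were set against mice in which that exon was flanked by loxP sites (floxed islets), the genotypes that the series text also calls knockout and wild type. The 6 groups of 3 libraries were deleted and floxed islets at 14 weeks of age after 6 weeks of a high-fat diet begun at 8 weeks, deleted and floxed islets at 14 weeks on chow, and deleted and floxed islets at 8 weeks on chow. The labels name neither a promoter or cell type driving Cre nor a sex, and they do not say that each library came from a separate animal, so p-values measure the spread between these libraries only.

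Islet endocrine cells are electrically excitable. In beta cells, the closure of ATP-sensitive potassium channels by glucose metabolism depolarises the membrane, voltage-gated calcium channels open, and calcium entry triggers insulin release. Voltage-gated sodium channels add to the upstroke of the action potential in mouse islet cells, delayed rectifier and calcium-activated potassium channels repolarise it, and two-pore potassium channels carry a background current that sets how far the membrane depolarises.

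The values are FPKM (fragments scaled to transcript length and to the library's mapped fragments), 1 per gene and library, and are set beside each other between genes here. The annotation behind the lengths is not given, so the order of genes of unlike length is approximate. Sequencing depth is unknown. The summed FPKM of a library lay between 903346 and 1394010, of which Ins2 took 40.2 to 52.7%, and 11474 to 11787 genes reached 1 FPKM. Both were split by diet at 14 weeks. The sum was at least 1337800 on the high-fat diet (Ins2 at least 50.2%) and at most 1078670 on chow (Ins2 at most 43.8%). Pearson's r of log2(FPKM + 1) across genes lay between 0.981 and 0.991 within groups (18 pairs) and between 0.963 and 0.990 across them (135 pairs). All 8 listed beta cell markers, all 6 alpha cell markers and all 5 delta and pancreatic polypeptide (PP) cell markers were detected, and of the 10 acinar markers Amy2a5 was listed at 0 in every library. Cdh13, read over the whole gene and not over the deleted exon, was at 0.247 to 0.809 FPKM in the deleted libraries. It was at 1.08 to 2.06 FPKM in the floxed libraries, without overlap of the genotypes. In whole islets, fewer cells of a type and less RNA per cell cannot be told apart.

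A few of the 135 genes held most of the signal. Their summed level was 445 to 522 FPKM per library, 0.0324 to 0.0505% of the library's total. At 14 weeks this share was 0.0324 to 0.0375% on the high-fat diet and 0.0449 to 0.0505% on chow. The part of the unlike totals in the diet differences below was not tested. Kcnk16, the two-pore potassium channel TALK-1 of islet cells, and Kcnip1, a calcium-binding accessory subunit of Kv4 channels, together held 52.9% of the summed level of the members, and the 12 highest members held 85%. The mean over 18 libraries was at least 100 FPKM for 2 members, 10 to 100 FPKM for 6, 5 to 10 FPKM for 4, 1 to 5 FPKM for 26, 0.1 to 1 FPKM for 33 and lower for 54, and 10 members were listed at 0 in every library. Thus 38 members averaged at least 1 FPKM, and in single libraries 31 to 40 reached it. Just above that level were Kcnn1 (1.16 FPKM), Scn3b (1.15 FPKM) and Kcnq1 (1.13 FPKM), and just below it Kcnn2 (0.915 FPKM), Kcnn3 (0.844 FPKM) and Kcnq1ot1 (0.814 FPKM).

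The windows before the starts of the highest pair and of their nearest channel gene neighbours are shown because each pair combines a very high and a low level within 1 locus. Kcnk16 (chr14:20261376-20269199, minus strand, mm10) averaged 143.8 FPKM and lies 79.57 kb from Kcnk5 (chr14:20140057-20181809, minus strand), the acid-sensitive two-pore channel TASK-2, which averaged 1.383 FPKM. Kcnip1 (chr11:33629339-33993152, minus strand) averaged 105.8 FPKM, and Kcnmb1 (chr11:33963013-33973641, plus strand), a beta subunit of the large-conductance calcium-activated (BK) channel, averaged 1.224 FPKM and lies within its span on the other strand without shared exon bases. The 250 bases before each RefSeq start (GRCm38.p6) are given 5′ to 3′ on the gene's strand, in lower case with CG dinucleotides in capitals. They span chr14:20269270-20269519 for Kcnk16, chr14:20181783-20182032 for Kcnk5, chr11:33993194-33993443 for Kcnip1 and chr11:33962763-33963012 for Kcnmb1.
Kcnk16: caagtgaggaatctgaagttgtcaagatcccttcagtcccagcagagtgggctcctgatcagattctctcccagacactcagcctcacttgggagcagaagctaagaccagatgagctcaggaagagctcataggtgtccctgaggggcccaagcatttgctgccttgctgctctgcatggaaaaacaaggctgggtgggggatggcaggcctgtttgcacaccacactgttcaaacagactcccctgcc
Kcnk5: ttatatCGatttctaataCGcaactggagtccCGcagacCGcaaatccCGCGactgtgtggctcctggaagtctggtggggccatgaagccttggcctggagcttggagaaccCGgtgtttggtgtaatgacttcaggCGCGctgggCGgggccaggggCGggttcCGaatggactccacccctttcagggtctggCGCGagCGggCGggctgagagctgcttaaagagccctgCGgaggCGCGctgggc
Kcnip1: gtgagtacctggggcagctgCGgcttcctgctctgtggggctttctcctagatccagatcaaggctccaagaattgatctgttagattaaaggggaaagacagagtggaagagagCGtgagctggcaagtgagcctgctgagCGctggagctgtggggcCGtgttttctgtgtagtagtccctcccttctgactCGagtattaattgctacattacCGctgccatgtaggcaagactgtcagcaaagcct
Kcnmb1: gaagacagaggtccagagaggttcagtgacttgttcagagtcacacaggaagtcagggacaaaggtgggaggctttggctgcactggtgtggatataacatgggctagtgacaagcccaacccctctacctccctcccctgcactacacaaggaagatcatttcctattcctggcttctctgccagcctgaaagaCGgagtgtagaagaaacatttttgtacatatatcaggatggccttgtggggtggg

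The Kcnk16 window held 0 CG dinucleotides and the Kcnk5 window 19, against 6 for Kcnip1 and 1 for Kcnmb1. Of all 32851 windows in the RefSeq table, 7.87% held 0, and 82.1% held no more than Kcnk5, with a median of 6. A window was matched for 99 of the 135 members and for 29 of the 41 members tested below, whose median was 10. The nearest transcript start in the GENCODE M21 annotation was 70 bases from the RefSeq start for Kcnk16, 41 for Kcnip1, 27 for Kcnk5 and 0 for Kcnmb1.

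**Figure D1:**
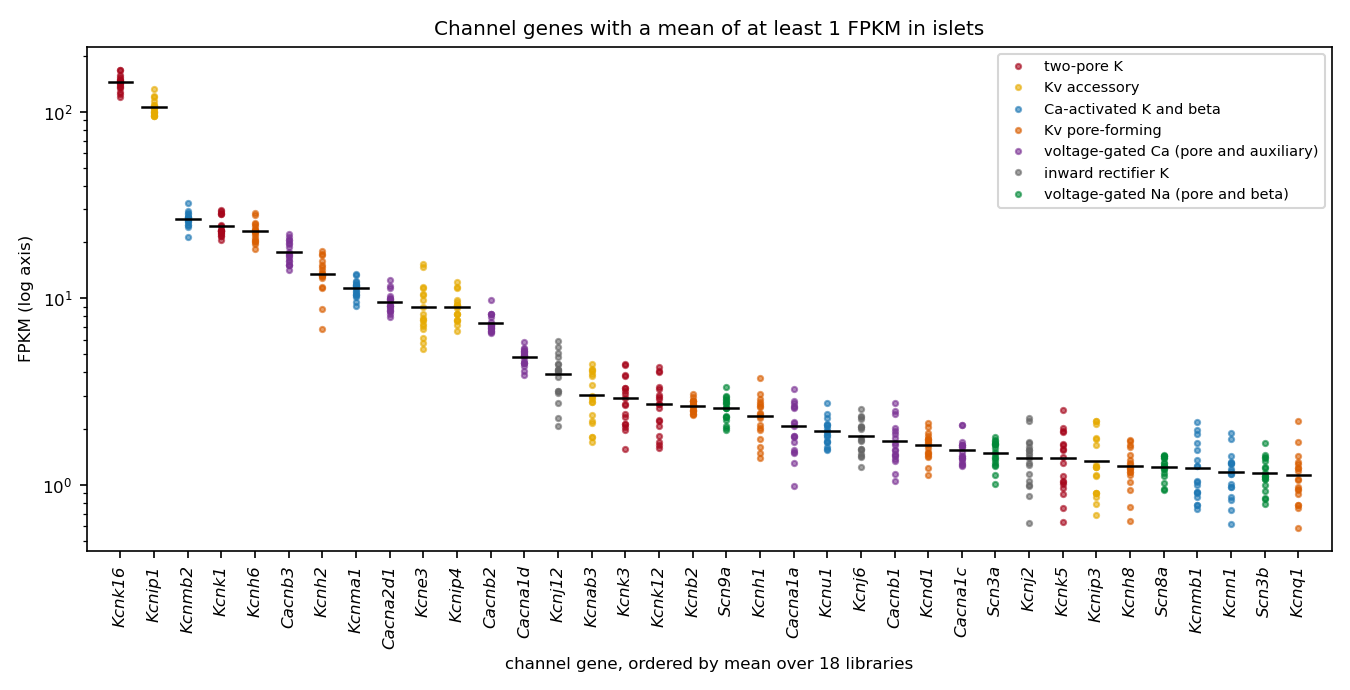
FPKM (log axis) of 36 of the 38 channel genes with a mean of at least 1 FPKM, ordered by that mean. Each point is 1 of 18 libraries, each line is the mean over them, and colours mark the class; the lowest Kcnip1 library is at 94.7 FPKM and the highest library of the next gene, Kcnmb2, at 32.6 FPKM.

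Among voltage-gated calcium channels, 3 of 10 pore-forming genes averaged at least 1 FPKM. Cacna1d, an L-type channel, led with 4.85 FPKM (3.86 to 5.80 in the 18 libraries), followed by Cacna1a, the P/Q-type channel, with 2.05 FPKM and Cacna1c, the other L-type channel of beta cells, with 1.53 FPKM. Their auxiliary subunits, which carry the pore to the membrane and tune its gating, stood higher: Cacnb3 averaged 17.7 FPKM, Cacna2d1 9.58 FPKM, Cacnb2 7.38 FPKM and Cacnb1 1.71 FPKM. No gamma subunit or AMPA receptor regulatory member of that family reached 1 FPKM on average. The highest of those 8, Cacng4, was at 0.286 FPKM, and 3 of them were listed at 0 in every library.

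Among voltage-gated sodium channels, Scn9a (2.56 FPKM), Scn3a (1.47 FPKM) and Scn8a (1.25 FPKM) were the 3 of 10 pore-forming genes with a mean of at least 1 FPKM. Their beta subunit Scn3b, a single-pass protein that alters gating and surface level, averaged 1.15 FPKM. Scn9a and its neighbours on chromosome 2 differed widely: Scn1a, 39.24 kb away, averaged 0.00383 FPKM, and Scn7a, 38.46 kb on the other side, averaged 0.064 FPKM.

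Of 40 pore-forming and silent Kv genes, 8 averaged at least 1 FPKM. The ether-à-go-go related channels Kcnh6 (22.8 FPKM) and Kcnh2 (13.5 FPKM) were the highest, above the delayed rectifier Kcnb2 (2.65 FPKM). Of 12 accessory genes, 5 reached 1 FPKM. Below Kcnip1 were Kcne3 (9.0 FPKM), a single-pass partner of Kcnq1, Kcnip4 (8.97 FPKM), Kcnab3 (3.02 FPKM) and Kcnip3 (1.33 FPKM). Kcnd1, the Kv4 gene above 1 FPKM, averaged 1.63 FPKM beside 105.8 FPKM of the Kv4 partner Kcnip1.

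Of 12 calcium- and sodium-activated potassium channel genes, Kcnmb2 (26.6 FPKM), an inactivating BK beta subunit, stood above the BK pore Kcnma1 (11.3 FPKM). Kcnu1, a pore gene best known from sperm, averaged 1.93 FPKM and had at least 1.53 FPKM in all 18 libraries. The small-conductance channels Kcnn1, Kcnn2 and Kcnn3 and the intermediate-conductance channel Kcnn4 averaged 0.808 to 1.16 FPKM. Among 13 inward rectifiers, Kcnj12 (3.94 FPKM), the G protein-gated Kcnj6 (1.83 FPKM) and Kcnj2 (1.39 FPKM) passed 1 FPKM. Among 14 two-pore genes, Kcnk1 (24.4 FPKM), Kcnk3 (2.90 FPKM, the acid-sensitive TASK-1), Kcnk12 (2.72 FPKM, THIK-2) and Kcnk5 followed Kcnk16. The 4 noncoding or antisense transcripts stayed below 1 FPKM on average, with Kcnq1ot1, which overlaps Kcnq1 on the other strand, the highest.

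The order at the top varied little between libraries. Kcnk16 ranked 1st and Kcnip1 2nd in all 18 libraries. Kcnmb2 ranked 3rd to 5th, Kcnk1 3rd to 6th, Kcnh6 4th to 6th and Cacnb3 5th to 7th, so that these neighbours in the order changed places between libraries. Kcnh2 ranked 6th to 12th, the widest span among the first 9 genes.

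For tests between groups, log2(FPKM + 1) was modelled with limma for 12234 genes, those that reached 1 FPKM in 3 or more libraries, and p-values were adjusted over all of them by the Benjamini-Hochberg method. The threshold for a call was 0.05. The filter kept 41 members, and 94 were not tested. Differences are on the log2(FPKM + 1) scale, which understates the change of low genes. In all, 18 members were called in at least 1 of the 7 comparisons of groups and 23 in none, among them Kcnk16, Kcnmb2, Kcnma1, Cacnb3, Cacna2d1, Cacnb2, Cacna1d and Scn9a. The share of all tested genes called in at least 1 of them was not counted, so 18 cannot be judged high or low. Kcnk16 had 120, 125 and 135 FPKM in deleted islets on the high-fat diet, 137, 167 and 141 FPKM in deleted islets on chow at 14 weeks, and 153, 134 and 144 FPKM in floxed islets on the high-fat diet. Its lowest adjusted p was 0.069, for the diet in deleted islets (-0.23). The range of the 6 group means was large for Kcne3 (0.98) and Kcnj12 (0.84) and smallest for Kcnb2 (0.10), Cacnb2 (0.19) and Kcnmb2 (0.20).

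**Figure D2:**
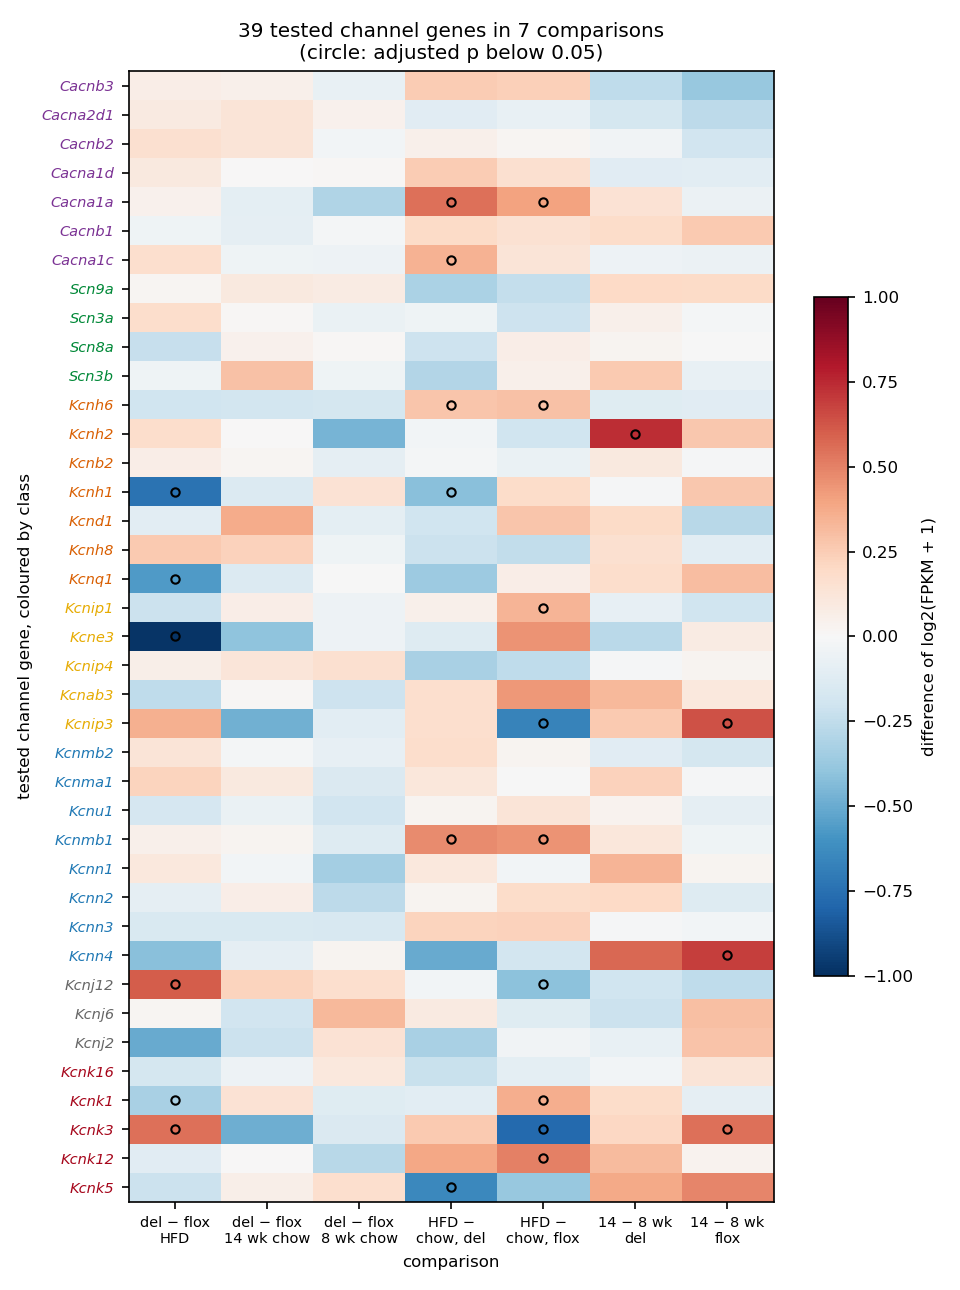
Difference of log2(FPKM + 1) for 39 of the 41 tested channel genes (down the page, by class and then by mean level) in 7 comparisons of groups (across). Red is higher and blue lower in the group named first, and circles mark adjusted p below 0.05, which stand mostly in the high-fat diet columns.

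On the high-fat diet, deleted and floxed islets differed in 6 channel genes. Kcne3, Kcnh1, Kcnq1 and Kcnk1 were lower in deleted islets, and Kcnk3 and Kcnj12 were higher. These 6 are 14.6% of the 41 tested members, and 10.7% of all tested genes were called in this comparison (4.7% higher and 6.02% lower). The median difference was 0.02 over the members and 0.01 over all tested genes. All 6 were potassium channel genes, as were most of the 41 tested members. Of the 12 tested calcium and sodium channel genes 0 were called, too few genes to tell this from the 10.7% of all tested genes.

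Kcne3 (chr7:100176502-100184869) had 5.36, 5.74 and 7.84 FPKM in deleted islets on the high-fat diet, against 14.7, 15.2 and 10.5 FPKM in floxed islets on that diet. Every deleted library was below every floxed one, at 46.8% of the floxed mean (log2 difference -0.98, SE 0.18, adjusted p = 0.00168, limma). Kcnq1 (chr7:143106362-143427042), a pore that Kcne3 is known to hold open in epithelia, had 0.754, 0.779 and 0.587 FPKM in deleted islets and 2.2, 1.07 and 1.42 FPKM in floxed islets. The groups did not overlap, and the floxed libraries were the more spread (-0.57, SE 0.14, adjusted p = 0.0147, limma). Kcnq1 shares 121 exon bases with Kcnq1ot1, and the library preparation does not mark the strand, so their reads cannot be told apart there. The same limit holds for the annotated antisense partners of Kcnk1 (179 shared exon bases), Kcnk3 (229) and Cacna1a (435).

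Kcnh1 (chr1:192190774-192510159), an ether-à-go-go channel, had 1.48, 1.38 and 1.59 FPKM in deleted islets on the high-fat diet and 3.05, 2.72 and 3.71 FPKM in floxed islets. It was at 46.9% of the floxed mean without overlap and had the smallest adjusted p of the members in this comparison (-0.74, SE 0.12, adjusted p = 0.00054, limma). Kcnk1 (chr8:125995170-126030685), the two-pore channel TWIK-1, had 24.6, 22.2 and 22.9 FPKM in deleted islets and 28.6, 29.9 and 29.5 FPKM in floxed islets. The difference was small but exceeded the spread of both groups (-0.32, SE 0.09, adjusted p = 0.0261, limma).

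Kcnk3 (chr5:30588170-30625271) had 3.29, 3.83 and 3.30 FPKM in deleted islets on the high-fat diet, against 1.56, 2.30 and 2.38 FPKM in floxed islets. Each deleted library was above each floxed one (0.55, SE 0.14, adjusted p = 0.0158, limma). Kcnj12 (chr11:61022564-61071131), an inward rectifier that holds cells near the potassium potential, had 3.12, 4.02 and 5.45 FPKM in deleted islets and 2.28, 2.76 and 2.06 FPKM in floxed islets. The deleted libraries were all higher but spread widely (0.61, SE 0.15, adjusted p = 0.0113, limma).

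**Figure D3:**
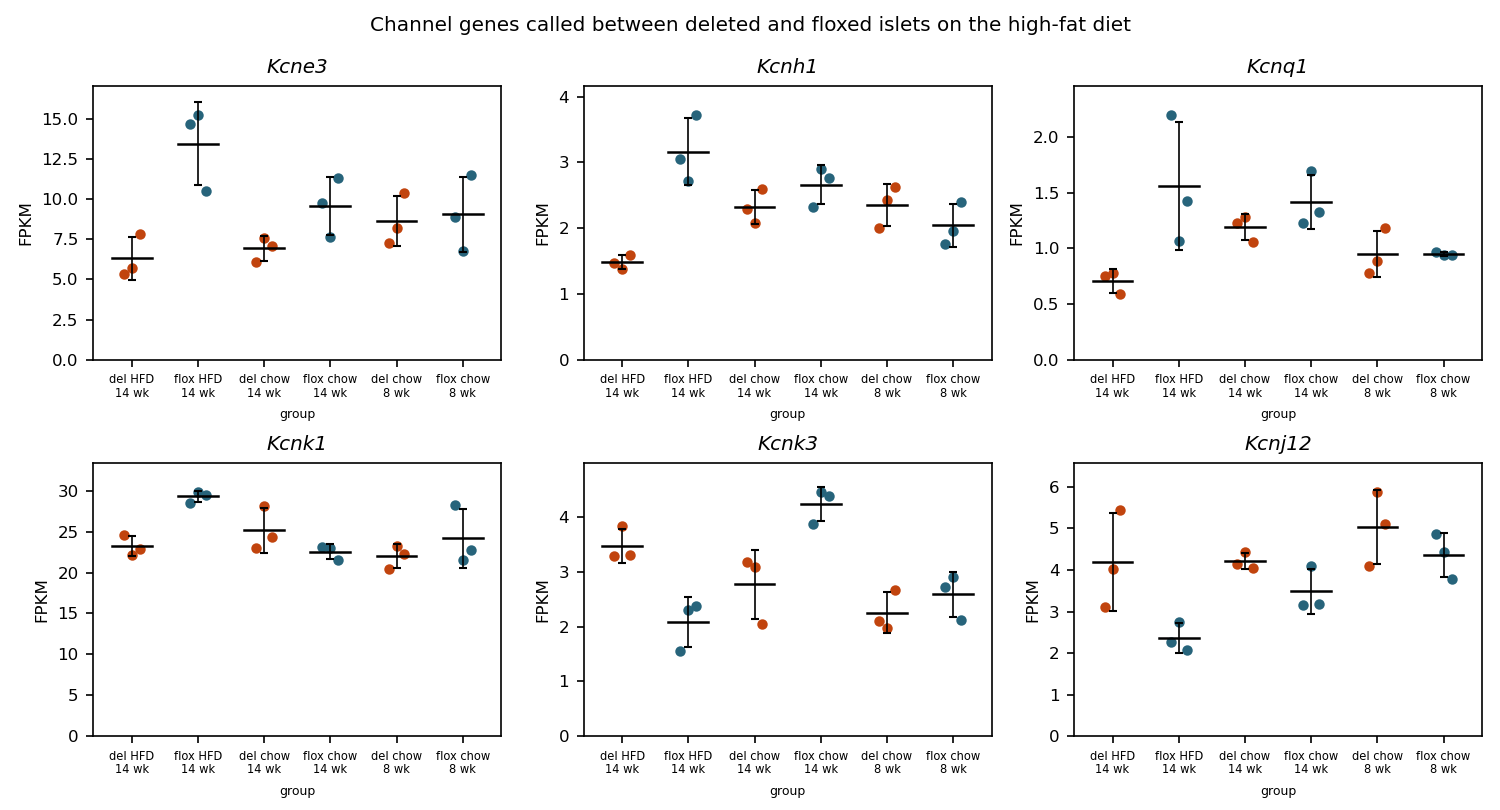
FPKM of the 6 channel genes called between deleted (orange) and floxed (blue) islets on the high-fat diet (HFD), shown in all 6 groups. Points are libraries, lines are group means and bars are SD (n = 3); for Kcne3 the deleted high-fat diet libraries reach 7.84 FPKM at most and the floxed ones start at 10.5 FPKM.

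The calls of Kcne3 and Kcnh1 held when any 1 library was left out. Kcnj12 missed the threshold without deleted library 3 (0.44, adjusted p = 0.0708) or floxed library 3 (0.54, adjusted p = 0.0556), Kcnk3 without deleted library 2 (0.49, adjusted p = 0.0661) or floxed library 1 (0.42, adjusted p = 0.0862), Kcnq1 without deleted library 3 (-0.51, adjusted p = 0.0572) or floxed library 1 (-0.39, adjusted p = 0.0866), and Kcnk1 without any of 5 of these 6 libraries (adjusted p of 0.0508 to 0.0931, limma); without deleted library 3 the count was 3. Markers of other cells moved in the same libraries. Of the alpha cell markers 4 of 5 tested were called higher in deleted islets (summed FPKM of 36178 to 46607, against 23396 to 28288 in floxed islets), and of the delta and PP cell markers 3 of 5 (21488 to 31690 in deleted islets, 17465 to 25270 in floxed islets). Endothelial markers were called lower for 4 of 6 (86.9 to 89.8 in deleted islets, 104 to 134 in floxed islets), and stromal and pericyte markers for 1 of 5 (6.23 to 9.11 in deleted islets, 8.93 to 22.1 in floxed islets). Of the other lists, 2 of 8 beta cell and 1 of 4 Schwann and neuronal markers were called higher in deleted islets, 1 of 6 macrophage and leukocyte markers lower, and no acinar or duct marker. Their part in the channel differences was not tested.

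On chow, no channel gene was called between the genotypes. At 14 weeks limma called 0 of 41 members and 0.114% of all tested genes. At an unadjusted p below 0.05 there were 6 members (14.6%), against 7.98% of all tested genes. The smallest p belonged to Kcnk3, which had 3.18, 3.08 and 2.05 FPKM in deleted islets and 3.88, 4.46 and 4.38 FPKM in floxed islets (-0.49, adjusted p = 0.225, limma). Next came Kcnd1, a Kv4 pore, with 1.74, 2.14 and 1.89 FPKM in deleted islets and 1.23, 1.42 and 1.13 FPKM in floxed islets (0.37, adjusted p = 0.243), and Kcnip3, a calcium-binding Kv4 partner also known as calsenilin or DREAM, with 1.76, 0.897 and 1.24 FPKM in deleted islets and 2.18, 2.2 and 2.12 FPKM in floxed islets (-0.48, adjusted p = 0.250). These 3 genes, described for their small p, did not overlap between the genotypes. Without overlap were 13 of the 41 members (31.7%) and 13.6% of all tested genes.

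At 8 weeks limma again called 0 of 41 members and 0.548% of all tested genes. At an unadjusted p below 0.05 there were 5 members (12.2%), near the 12.5% of all tested genes. Kcnh2 had 6.82, 11.4 and 8.80 FPKM in deleted islets and 11.5, 13.2 and 13.1 FPKM in floxed islets (-0.47, adjusted p = 0.127, limma). Kcnh6 had 20.3, 21.8 and 21.0 FPKM in deleted islets and 22.9, 23.5 and 25.1 FPKM in floxed islets (-0.17, adjusted p = 0.286), and Cacna1a had 0.984, 1.49 and 1.70 FPKM in deleted islets and 1.81, 2.17 and 1.82 FPKM in floxed islets (-0.30, adjusted p = 0.357). The groups did not overlap for any of the 3, though the highest deleted and lowest floxed Kcnh2 libraries were nearly level. Without overlap were 7 of the 41 members (17.1%), near the 16.5% of all tested genes. In these libraries 2 of 5 alpha cell markers were called lower in deleted islets (summed FPKM of 15816 to 23863, against 28907 to 33281 in floxed islets). Of the delta and PP cell markers 1 of 5 was called higher (44321 to 58064 in deleted islets, 13235 to 19169 in floxed islets), with a median difference of -0.01 over the 5. The part of these cell types in the channel values was not tested. The difference was positive for 12 of the 41 members at 8 weeks, with a median of -0.06 against -0.01 over all tested genes.

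The high-fat diet was compared with chow at 14 weeks within each genotype. These comparisons share no library with each other, but each shares 1 diet group with the comparison of the genotypes on the diet. In both genotypes Cacna1a, Kcnh6 and Kcnmb1 rose on the diet. In deleted islets 7 members were called, 5 higher and 2 lower (17.1% of 41), against 15% of all tested genes (9.05% higher and 5.91% lower). In floxed islets 10 were called, 7 higher and 3 lower (24.4% of 41), against 28.5% of all tested genes (15% higher and 13.5% lower). The median difference was 0.03 in deleted and 0.05 in floxed islets, against -0.00343 and -0.00603 over all tested genes. The 3 shared calls are 42.9% of the deleted list and 30% of the floxed list, and 29 of the 41 members had the same sign in both. Shared calls and signs were not counted over all tested genes, so this sharing cannot be called particular to channel genes. Nor was the share of all tested genes whose libraries do not overlap between the diets. Such separation, given below for single genes and sums, therefore cannot be judged common or rare.

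Cacna1a (chr8:84388440-84640246) had 2.63, 2.62 and 3.25 FPKM in deleted islets on the high-fat diet, against 1.54, 2.05 and 1.31 FPKM in deleted islets on chow (0.55, SE 0.14, adjusted p = 0.00967, limma). In floxed islets it had 2.73, 2.59 and 2.82 FPKM on the high-fat diet and 2.15, 1.81 and 1.48 FPKM on chow (0.40, SE 0.14, adjusted p = 0.0306, limma). The diets did not overlap in either genotype, and all 6 high-fat diet libraries were above all 6 chow libraries. Cacna1c (chr6:118587240-119196418) had 2.09, 2.08 and 1.69 FPKM in deleted islets on the high-fat diet and 1.37, 1.33 and 1.27 FPKM in deleted islets on chow (0.35, SE 0.10, adjusted p = 0.0300, limma). In floxed islets Cacna1c had 1.64, 1.62 and 1.60 FPKM on the high-fat diet and 1.42, 1.38 and 1.39 FPKM on chow. These did not overlap, but the difference of 0.13 was not called (adjusted p = 0.378, limma). Cacna1d, the most abundant pore of this class, was not called (0.25, adjusted p = 0.0913 in deleted islets, and 0.16, adjusted p = 0.238 in floxed islets). The summed level of the 10 calcium channel pore genes was 11.0 ± 0.490 FPKM in deleted islets on the high-fat diet and 8.01 ± 0.977 FPKM in deleted islets on chow (SD, n = 3 each). The same sum was 10.2 ± 0.355 FPKM in floxed islets on the high-fat diet and 8.25 ± 0.345 FPKM in floxed islets on chow. It was thus higher on the diet in both genotypes, without overlap of the libraries, and it includes Cacna1a and Cacna1c. Other class sums were also separated by diet in both genotypes. Calcium channel beta subunits were higher on the diet, and alpha2delta subunits and sodium channel pores lower. Sodium channel pores summed to 4.84 and 4.86 FPKM on the diet in deleted and floxed islets, and to 6.14 and 5.79 FPKM on chow.

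Kcnh6 (chr11:106008124-106034549) had 22.9, 24.5 and 23.3 FPKM in deleted islets on the high-fat diet and 19.6, 18.3 and 19.9 FPKM in deleted islets on chow (0.28, SE 0.07, adjusted p = 0.00989, limma). In floxed islets it had 27.9, 25.2 and 28.5 FPKM on the high-fat diet and 22.5, 20.6 and 22.8 FPKM on chow (0.30, SE 0.07, adjusted p = 0.00358, limma). The diet mean was 122% of the chow mean in deleted islets and 124% in floxed islets, and the diets did not overlap in either. Kcnmb1 had 1.54, 2.16 and 1.67 FPKM in deleted islets on the high-fat diet and 1.36, 0.777 and 0.916 FPKM in deleted islets on chow (0.47, SE 0.14, adjusted p = 0.0305, limma). In floxed islets it had 1.88, 1.96 and 1.25 FPKM on the high-fat diet and 0.856, 1.04 and 0.992 FPKM on chow (0.45, SE 0.14, adjusted p = 0.0230, limma). The pore that Kcnmb1 serves, Kcnma1, was not called (0.12 in deleted and -0.01 in floxed islets, adjusted p of 0.440 and 0.964).

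Kcnk5 and Kcnh1 were called for diet in deleted islets and not in floxed islets, and for neither was the interaction called. Kcnk5 had 0.633, 1.11 and 0.958 FPKM on the high-fat diet and 2.51, 1.53 and 1.92 FPKM on chow, 45.4% of the chow mean without overlap (-0.65, SE 0.16, adjusted p = 0.0100, limma). In floxed islets Kcnk5 had 0.889, 1.31 and 1.41 FPKM on the high-fat diet and 2.0, 1.94 and 1.62 FPKM on chow, also without overlap but not called (-0.38, adjusted p = 0.0851). Kcnh1 was lower on the diet (-0.42, SE 0.12, adjusted p = 0.0245, limma), with 2.28, 2.08 and 2.60 FPKM in the deleted chow libraries, all above the diet libraries given earlier. In floxed islets it averaged 3.16 ± 0.508 FPKM on the high-fat diet and 2.66 ± 0.298 FPKM on chow (SD, n = 3 each), a difference of the other sign that was not called (0.18, adjusted p = 0.280); its interaction was -0.60 (adjusted p = 0.0592, limma).

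The sodium channel pores Scn9a and Scn3a were not called for diet in either genotype, with differences of -0.32 and -0.04 in deleted islets and -0.24 and -0.21 in floxed islets. Scn9a was lower in every high-fat diet library (at most 2.58 FPKM) than in every chow library of 14 weeks (at least 2.74 FPKM). How many of all tested genes separate in this way was not counted. The Scn3a libraries overlapped between the diets in both genotypes. Among the tested sodium channel pores the smallest adjusted p was 0.0565 in deleted and 0.106 in floxed islets (limma).

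Kcnip1, the second most abundant member, had 132, 121 and 109 FPKM in floxed islets on the high-fat diet and 96.0, 94.7 and 94.7 FPKM in floxed islets on chow (0.34, SE 0.07, adjusted p = 0.00225, limma). The chow libraries lay close together and below all diet libraries. Kcnk1 was higher on the diet (0.36, SE 0.09, adjusted p = 0.00569), with 23.1, 23.0 and 21.6 FPKM in the floxed chow libraries. Kcnk12 (chr17:87745801-87797994) had 4.27, 3.27 and 4.01 FPKM on the high-fat diet and 2.59, 2.94 and 1.82 FPKM on chow (0.50, SE 0.15, adjusted p = 0.0183, limma). In floxed islets all 3 genes were separated by diet without overlap. Kcnk12 was also higher on the diet in deleted islets, with 3.03, 3.36 and 4.08 FPKM on the high-fat diet and 2.89, 2.19 and 2.23 FPKM on chow. These did not overlap either, but Kcnk12 was not called there (0.385), and its interaction was not called.

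The 3 members lower on the diet in floxed islets were Kcnk3, Kcnip3 and Kcnj12. Kcnk3 was at 49.0% of the chow mean (-0.78, SE 0.14, adjusted p = 0.000445, limma), from the floxed libraries already given, whose diets did not overlap. Kcnip3 (chr2:127456498-127522094) had 1.25, 0.904 and 0.861 FPKM in floxed islets on the high-fat diet and 2.18, 2.2 and 2.12 FPKM in floxed islets on chow, 46.3% of the chow mean (-0.67, SE 0.15, adjusted p = 0.00216, limma). Kcnj12 was at 67.8% of the chow mean (-0.41, SE 0.15, adjusted p = 0.0417, limma), with 3.17, 4.11 and 3.19 FPKM in the floxed chow libraries.

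**Figure D4:**
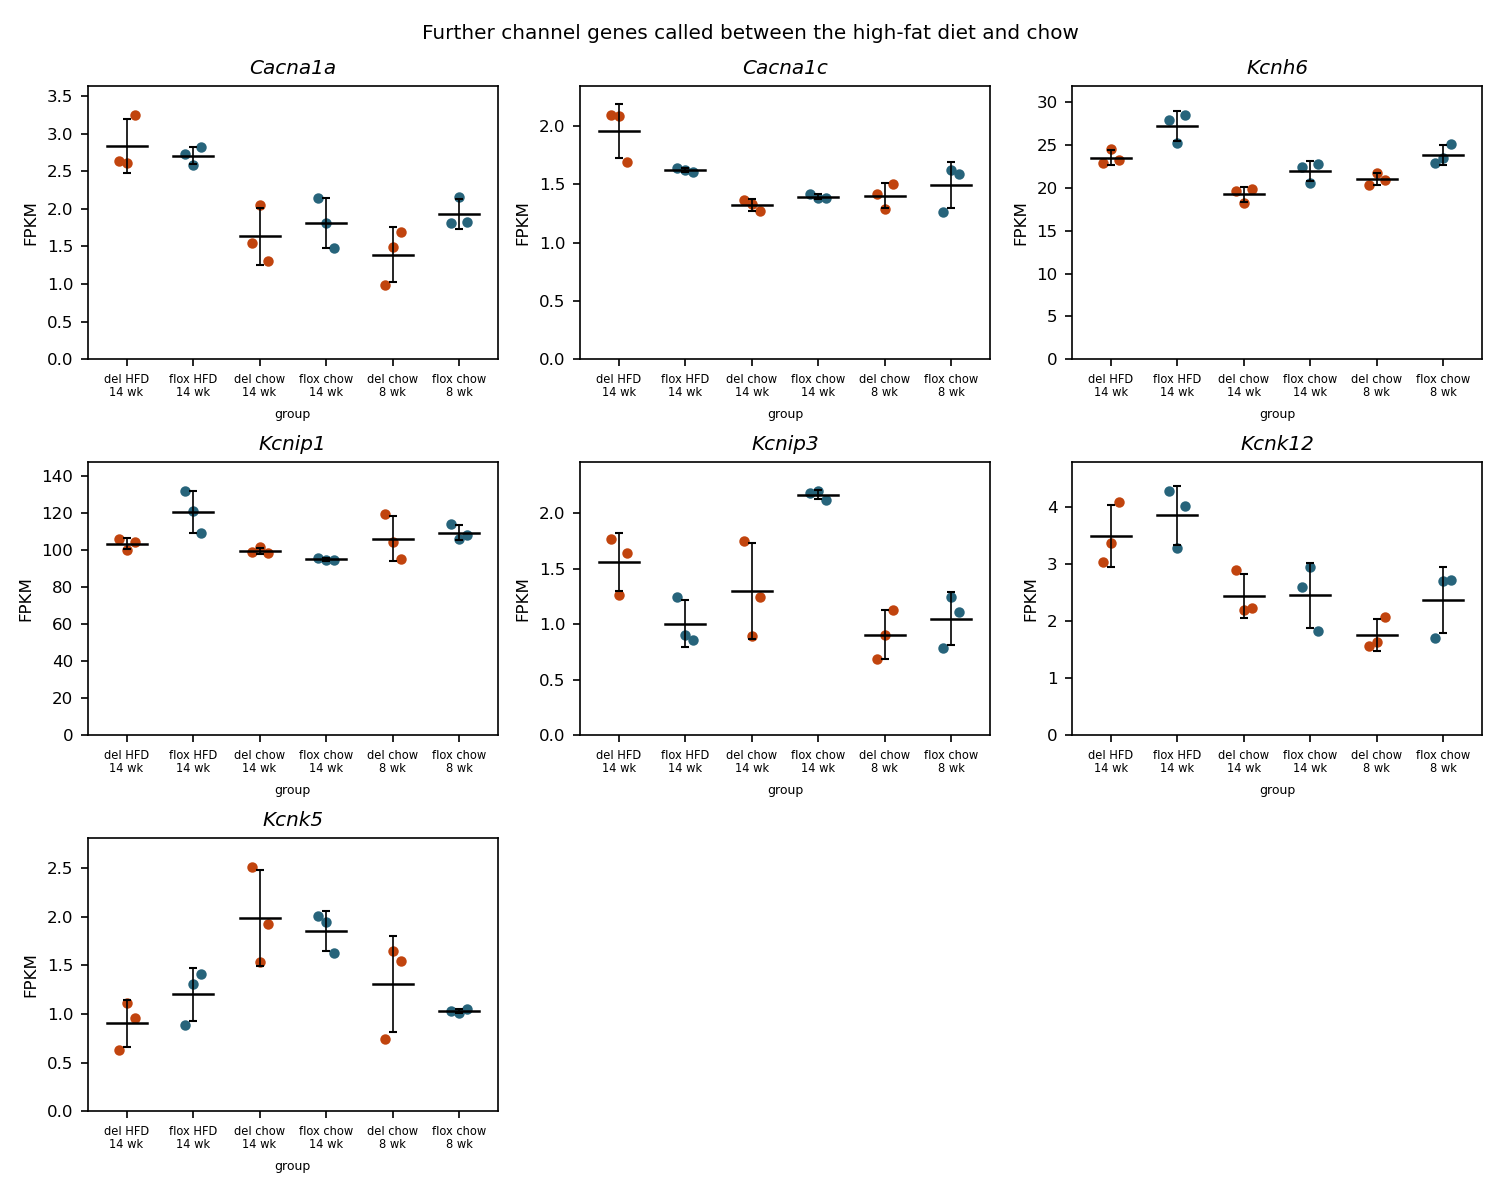
FPKM of 7 further channel genes called for diet in at least 1 genotype, in deleted (orange) and floxed (blue) islets on the high-fat diet (HFD) at 14 weeks and on chow at 14 and 8 weeks. Points are libraries, lines are means and bars are SD (n = 3); for Cacna1a all 6 high-fat diet libraries stand above all 6 chow libraries of 14 weeks.

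Acinar markers moved with diet in both genotypes. Their summed level was 82.6 to 173 FPKM in deleted islets on the high-fat diet and 1367 to 2514 FPKM in deleted islets on chow, and 19.6 to 291 FPKM in floxed islets on the high-fat diet and 906 to 4522 FPKM in floxed islets on chow. In limma 7 of 9 tested acinar markers were called lower on the diet in deleted islets and 9 of 9 in floxed islets. With their mean as a covariate, 2 members remained called in deleted islets (Kcnh1 and Kcnk5) and 4 in floxed islets (among them Kcnip1, Kcnip3 and Kcnk3). The summed acinar markers did not overlap between the diets in either genotype. Such a covariate can hardly be separated from diet, so neither kept nor lost calls tell the part of acinar RNA from that of diet. Cacna1a, Kcnh6 and Kcnmb1 missed the threshold with differences of 0.42, 0.21 and 0.49 in deleted islets (adjusted p of 0.205, 0.206 and 0.164), and of 0.26, 0.22 and 0.47 in floxed islets (adjusted p of 0.411, 0.152 and 0.151). The Kcnmb1 differences were as large as without the covariate, and those of Cacna1a and Kcnh6 were smaller. In deleted islets 7 of 8 beta, 3 of 5 alpha and 2 of 5 delta and PP cell markers were called higher on the diet, and 4 of 5 stromal and pericyte, 1 of 4 duct and 2 of 6 endothelial markers lower. In floxed islets 4 of 8 beta cell markers were called higher and 1 lower, and 1 of 5 alpha, 3 of 5 delta and PP cell, 3 of 5 stromal and pericyte, 4 of 6 macrophage and leukocyte, 3 of 4 duct, 2 of 6 endothelial and 1 of 4 Schwann and neuronal markers lower. The part of these cell types in the channel differences was not tested.

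The counts for diet also depended on single libraries. In deleted islets the count was 2 without deleted high-fat diet library 2 or chow library 3, 3 without chow library 1, and 4 without high-fat diet library 3. In floxed islets it was 6 without floxed high-fat diet library 1, when Cacna1a, Kcnj12, Kcnk12 and Kcnmb1 were not called. Each of the 7 calls in deleted islets was lost without at least 1 of the 6 deleted libraries, for example Kcnh6 without high-fat diet library 2, Kcnk5 without either library 1, Cacna1a without either library 3, and Cacna1c, Kcnh1 and Kcnmb1 without 4 or 5 of them (adjusted p of 0.051 to 0.142). In floxed islets Cacna1a and Kcnj12 were lost without 5 of the 6 floxed libraries, and Kcnk12 and Kcnmb1 without 3 (adjusted p of 0.052 to 0.176). The diet calls of Kcnip1, Kcnip3 and Kcnk3 in floxed islets held under all 24 alternatives tried.

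The diet difference itself depended on genotype for 3 members. The interaction, the diet difference in deleted islets minus that in floxed islets, was called for Kcnk3, Kcnip3 and Kcnk1, 7.32% of the 41 members against 3.53% of all tested genes (1.42% positive and 2.11% negative). Kcnk3 averaged 3.47 ± 0.306 FPKM on the high-fat diet and 2.77 ± 0.627 FPKM on chow in deleted islets, and 2.08 ± 0.453 FPKM on the high-fat diet and 4.24 ± 0.315 FPKM on chow in floxed islets (SD, n = 3 each). Its interaction was 1.04 (SE 0.20, adjusted p = 0.00561, limma) and held when any 1 library was left out. The Kcnip3 interaction was 0.83 (SE 0.21, adjusted p = 0.0286, limma), with 1.77, 1.27 and 1.64 FPKM in deleted islets on the high-fat diet and 1.76, 0.897 and 1.24 FPKM in deleted islets on chow, which overlap. The Kcnk1 interaction was -0.47 (SE 0.13, adjusted p = 0.0481, limma), with 22.9, 28.2 and 24.3 FPKM in the deleted chow libraries.

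Both Kcnip3 and Kcnk1 missed the threshold of the interaction without any of several libraries. Without deleted high-fat diet library 1 or 3, deleted chow library 2 or 3, floxed high-fat diet library 2 or 3, or floxed chow library 1 or 2, Kcnk3 alone was called, with Kcnip3 at adjusted p of 0.0584 to 0.0751. Kcnk1 was called under 7 of 24 alternatives (adjusted p of 0.0171 to 0.124). Alpha cell markers were called for the interaction in 4 of 5 cases, delta and PP cell markers in 3 of 5 and beta cell markers in 2 of 8, all positive. The summed alpha markers were 36178 to 46607 FPKM on the high-fat diet and 31178 to 37064 FPKM on chow in deleted islets, and 23396 to 28288 FPKM on the high-fat diet and 37881 to 41132 FPKM on chow in floxed islets. Whether they contributed to the channel values was not tested.

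**Figure D5:**
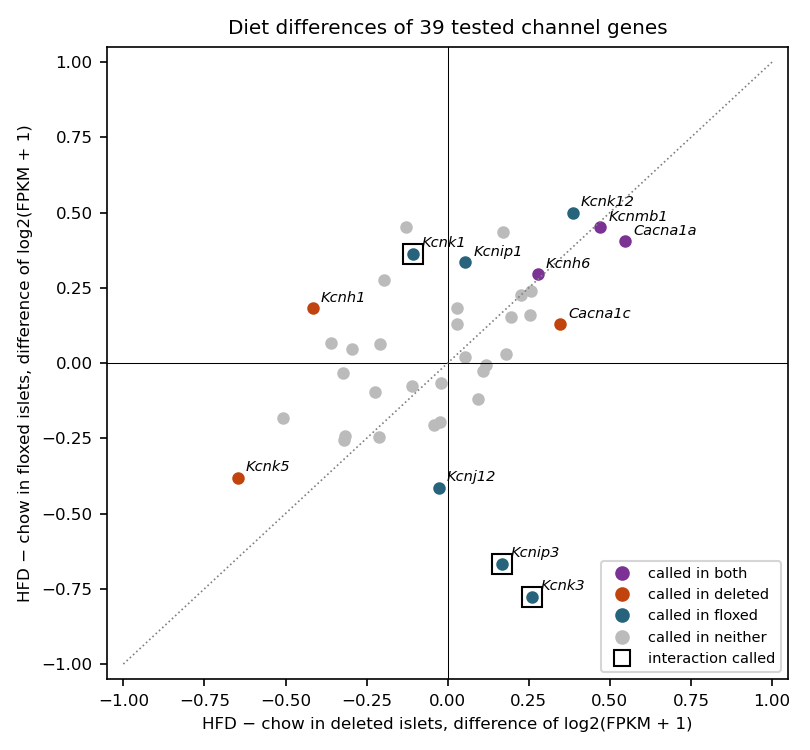
Difference of log2(FPKM + 1) between the high-fat diet (HFD) and chow for 39 of the 41 tested channel genes, in deleted islets (x axis) and floxed islets (y axis), with the dotted line of equal differences. Colours mark where a gene was called and squares mark a called interaction: Kcnk3 and Kcnip3 lie far below the line and Kcnk1 above it.

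Age was compared on chow, 14 against 8 weeks, within each genotype. In deleted islets limma called 1 of 41 members (2.44%), against 2.91% of all tested genes (2.35% higher). Kcnh2 (chr5:24319589-24351604), the channel known as hERG in humans, had 15.9, 13.3 and 17.4 FPKM at 14 weeks and 6.82, 11.4 and 8.80 FPKM at 8 weeks in deleted islets. The older libraries were all higher, at 172% of the 8-week mean (0.74, SE 0.14, adjusted p = 0.00431, limma). In floxed islets it had 17.1, 15.1 and 14.1 FPKM at 14 weeks and 11.5, 13.2 and 13.1 FPKM at 8 weeks (0.27, adjusted p = 0.311, limma). The Kcnh2 call in deleted islets was lost only with a fit of these 6 libraries alone (0.74, adjusted p = 0.0776). In the same comparison 2 of 5 alpha cell markers were called higher at 14 weeks (summed FPKM of 31178 to 37064 at 14 weeks and 15816 to 23863 at 8 weeks), as was 1 of 4 duct markers. Of the delta and PP cell markers 2 of 5 were called lower (9240.5 to 24838 at 14 weeks and 44321 to 58064 at 8 weeks), and of the beta cell markers 2 of 8. Acinar markers were at 1367 to 2514 FPKM at 14 weeks and 37.7 to 1166 FPKM at 8 weeks with none of 9 called, and with their mean as a covariate the Kcnh2 difference was 0.83 (adjusted p = 0.0192). The summed acinar markers did not overlap between these ages, so the covariate can hardly be separated from age. The part of the other cell types was not tested.

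In floxed islets limma called 3 of 41 members for age, all higher at 14 weeks (7.32%, against 4.15% of all tested genes, 3.2% higher). Kcnk3 had 3.88, 4.46 and 4.38 FPKM at 14 weeks and 2.72, 2.91 and 2.13 FPKM at 8 weeks (0.55, SE 0.14, adjusted p = 0.0296, limma). Kcnip3 had 2.18, 2.2 and 2.12 FPKM at 14 weeks and 0.784, 1.25 and 1.11 FPKM at 8 weeks (0.64, SE 0.15, adjusted p = 0.0152, limma). Neither overlapped between the ages, and their 14-week libraries are also the chow libraries of the diet comparison. Kcnn4 (chr7:24370263-24386690) had 1.29, 1.54 and 1.02 FPKM at 14 weeks and 0.207, 0.417 and 0.632 FPKM at 8 weeks in floxed islets (0.69, SE 0.18, adjusted p = 0.0326, limma).

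The 3 age calls in floxed islets were lost together without floxed 14-week library 2 or 3 (0 called) or floxed 8-week library 1 (1 called, Cacnb3, lower), and 5 members were called without deleted 8-week library 1. Single calls were also lost without floxed 14-week library 1 or floxed 8-week library 2 (Kcnn4, adjusted p of 0.0719 and 0.0744) and floxed 8-week library 3 (Kcnk3, adjusted p = 0.127). Acinar markers were at 906 to 4522 FPKM at 14 weeks and 78.4 to 214 FPKM at 8 weeks in floxed islets, with 3 of 9 called higher. The ages did not overlap, so age can hardly be separated from a covariate made of these markers. With their mean as a covariate the 3 genes missed the threshold, with differences of 0.75 for Kcnip3 (adjusted p = 0.0607), 0.74 for Kcnk3 (adjusted p = 0.051) and 0.62 for Kcnn4 (adjusted p = 0.244), the first pair larger than without it. Macrophage and leukocyte markers were called higher at 14 weeks for 4 of 6, duct markers for 3 of 4, and alpha (of 5), endothelial (of 6), stromal and pericyte (of 5) and Schwann and neuronal markers (of 4) for 1 each; 1 of 8 beta cell markers was called lower. Their part was not tested. The interaction of genotype and age was called by limma for 0 of 41 members, with 4 at an unadjusted p below 0.05, and for 0.196% of all tested genes. Those 4 are 9.76% of the members, near the 8.91% of all tested genes at the same unadjusted threshold. Its smallest adjusted p among members was 0.299, for Kcnd1 (0.47), followed by Kcnj6 (-0.51, adjusted p = 0.440) and Kcnh2 (0.47, adjusted p = 0.446).

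Other genes of membrane potential and calcium handling were taken from a list of 42, of which 41 were in the files and 34 were tested. Between deleted and floxed islets on the high-fat diet, 4 were called higher and 2 lower (17.6% of 34, against the 10.7% of all tested genes), and on chow at either age none was. Abcc8, the sulphonylurea receptor of the ATP-sensitive channel, averaged 251 ± 11.0 FPKM in deleted islets and 195 ± 4.09 FPKM in floxed islets on the diet (0.36, adjusted p = 0.0263, limma). Its pore in beta cells, Kcnj11, averaged 23.4 ± 2.60 FPKM in deleted islets and 19.2 ± 2.15 FPKM in floxed islets and was not called. Trpm5, a calcium-activated cation channel, averaged 21.9 ± 0.502 FPKM in deleted islets and 14.9 ± 2.12 FPKM in floxed islets (0.53, adjusted p = 0.000895, limma), and the related Trpm4 averaged 3.77 ± 0.120 FPKM in deleted islets and 5.09 ± 0.0681 FPKM in floxed islets (-0.35, adjusted p = 0.0143, limma). Kcnj8, whose product forms the ATP-sensitive channel of pericytes and smooth muscle, averaged 1.49 ± 0.282 FPKM in deleted islets and 5.83 ± 1.36 FPKM in floxed islets (-1.44, adjusted p = 1.41e-05, limma).

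For diet, 4 of the 34 genes were called higher and 4 lower in deleted islets, and 5 higher and 8 lower in floxed islets. These are 23.5% of the list in deleted islets, against 15% of all tested genes, and 38.2% in floxed islets, against 28.5%. In floxed islets Trpm5 averaged 14.9 ± 2.12 FPKM on the high-fat diet and 20.3 ± 1.89 FPKM on chow (SD, n = 3 each; -0.43, adjusted p = 0.002, limma). Trpm4 averaged 5.09 ± 0.0681 FPKM on the high-fat diet and 2.92 ± 0.0744 FPKM on chow in the same libraries (0.63, adjusted p = 4.16e-05, limma). For age, 2 of the 34 genes were called higher and 1 lower in deleted islets, and 1 higher and 1 lower in floxed islets (8.82% in deleted islets, against 2.91% of all tested genes, and 5.88% in floxed islets, against 4.15%).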

How the data were processed

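For each islet library the authors deposited FPKM for 24346 gene symbols. Per the submitters' processing notes the tools were TopHat2 2.0.13, Bowtie2 2.2.3, SAMtools 0.1.19 and Cufflinks 2.2.1 with mouse build mm10; what each did, the annotation and any filters: not given in the sources used here. Neither labels nor headers name the unit, which was read from Cufflinks and the values. Per the labels, full-length cDNA (SMART-Seq HT) went into Nextera libraries, which do not mark the strand. Depth is unknown, so no counting error is given. The 135 members matched GENCODE M21 positions (mm10), with Scn2a1 under its symbol Scn2a, and promoter windows come from RefSeq (GRCm38.p6).

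FPKM were taken as log2(FPKM + 1) of the deposited values. The 12234 genes that reached 1 FPKM in 3 or more of 18 libraries were modelled in R 4.3.3 with limma 3.58.1 (using statmod 1.5.0), fitting 6 group means and a robust, trended prior variance. The 9 comparisons were 3 of genotype, 2 of diet, 2 of age and 2 interactions. P-values were adjusted over all tested genes, and the procedure was tested on simulated data. Alternatives were a pseudocount of 0.1 FPKM, no filter, quantile normalization, only the groups compared, the replicate number as a block, the acinar marker mean as a covariate, a mean of 5 FPKM for expressed members, and each library left out in turn.

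Named were 15 genes followed in every comparison, the 12 highest members and the highest of each class, called members (the 3 smallest p where none was called), and the 3 widest and 3 narrowest ranges of group means; other members named for their level were chosen after their values were seen. Some genes that met this rule are left out. The members, classes and lists were chosen with earlier results of these data known. Other steps used pandas 2.3.3 and numpy 2.4.6 under python 3.11.15, and matplotlib 3.10.9 for the plots.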

Additional observations from a re-analysis of the deposited data

Results flagged for a closer look

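The diet difference of 3 channel genes differed between deleted and floxed islets by a test of the interaction in limma (high-fat diet minus chow in deleted islets, minus the same in floxed islets). The value was 1.04 for Kcnk3 (adjusted p = 0.00561), 0.83 for Kcnip3 (adjusted p = 0.0286) and -0.47 for Kcnk1 (adjusted p = 0.0481). For Kcnk3 the diet difference was 0.26 in deleted islets (adjusted p = 0.233) and -0.78 in floxed islets (adjusted p = 0.000445). The Kcnk3 interaction was called under all 24 alternatives, that of Kcnip3 under 16 and that of Kcnk1 under 7.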

How the results depend on the processing

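Of 30 calls of single channel genes, 7 held under all 24 alternatives, among them Kcne3 and Kcnh1 between the genotypes on the high-fat diet, Kcnip1, Kcnip3 and Kcnk3 for diet in floxed islets, and Kcnk3 for the interaction with diet. Of 720 alternative values, 611 kept their direction and call, 109 kept their direction only and 0 reversed. Many of these values could hardly move. Leaving out a library of a group outside the comparison does not change the difference, only the shared estimate of spread and the adjustment. Without a filter on low values, 13 members instead of 6 were called between the genotypes on the diet (5 higher and 8 lower), 2 instead of 1 for age in deleted islets and 1 instead of 3 for age in floxed islets. With only the groups compared, 4 instead of 7 were called for diet in deleted islets and 0 instead of 1 for age in deleted islets. With the acinar covariate, 2 were called for diet in deleted islets, 4 for diet in floxed islets and 1 for age in floxed islets. The cause was not tested. With a mean of 5 FPKM, 12 members instead of 38 counted as expressed. With each library left out, the count was 3 to 8 between the genotypes on the diet, 2 to 8 for diet in deleted islets, 6 to 11 for diet in floxed islets, 1 for age in deleted islets, 0 to 5 for age in floxed islets and 1 to 4 for the interaction with diet, and the other comparisons stayed at 0; the spread of a group left with 2 libraries was taken from all groups.

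The replicate numbers did not pair the libraries: same-numbered libraries deviated with correlations of -0.159 to 0.166, and in no comparison of groups were all above 0.1. With the replicate number as a block, 7 members were called between the genotypes on the diet, 8 for diet in deleted islets, 10 for diet in floxed islets, 1 for age in deleted islets, 4 for age in floxed islets and 3 for the interaction with diet, and 0 elsewhere. For the interaction with diet, Kcnk1 missed the threshold with the block (-0.47, adjusted p = 0.0663) and Kcnh1 was called in its place; the block ended no other call. Depth is unknown, and genes near 1 FPKM, such as Kcnq1, Kcnk5, Kcnip3, Kcnmb1 and Kcnn4, rest on low values.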
